A study of Homo sapiens with 18 samples.

Results

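The 41 histone genes described here were taken from 13661 genes measured by polysome profiling in HEK293 cells, an established human embryonic kidney line. They were picked by symbol, from genes whose names begin with H1-, H2A, H2B, H3-, H3C, H4C, H4- or MACROH2A. A further gene of this naming rule is not reported here. No measured value is part of the rule, but members were chosen with earlier results of these data known. Of the 41 genes, 29 are called cluster core genes, because their names carry the C and number of the replication-dependent core histone clusters. They are 5 H2A, 12 H2B, 6 H3 and 6 H4 genes. The other members are 3 linker histone genes (H1-2, H1-4 and H1-10) and 9 variant genes (H2AJ, H2AX, H2AZ1, H2AZ2, H3-3A, H3-3B, H3-5, MACROH2A1 and MACROH2A2). H1-2 and H1-4 lie in the chromosome 6 histone cluster although their names lack the C, and the linker genes are therefore shown apart. In GENCODE release 29 on GRCh38, 18 of the cluster core genes lie on chromosome 6, 9 on chromosome 1 and 1 on chromosome 21, and H3C2 is not in that release. The gene on chromosome 21, H2BC12L, is counted by its name and not by its place.

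The cells received DMSO vehicle for 12 h, and the cytoplasmic lysate of each of 3 biological replicates was fractionated on a sucrose gradient, in which an mRNA sediments farther the more ribosomes it carries. Each gradient was pooled into a heavy polysome, a light polysome and a monosome fraction, giving 9 libraries of single-end reads of 75 nt. The series also holds 9 libraries of cells given 100 µM minocycline, which are not analysed here, so every value below describes vehicle-treated cells. Whether the libraries were made from polyadenylated RNA is not given in the sources used here.

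Replication-dependent histone genes supply the nucleosomes assembled behind replication forks, and their mRNAs accumulate in S phase. These mRNAs carry no poly(A) tail; they end in a conserved stem-loop that the stem-loop binding protein SLBP holds through 3' end processing, translation and decay. Variant histones are mostly made from polyadenylated mRNAs throughout the cell cycle, and H2AX is known for having both a stem-loop form and a polyadenylated form. H2A pairs with H2B and H3 with H4 in the nucleosome core, and H1 binds the linker DNA where it enters and leaves.

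The stem-loop is the sequence by which replication-dependent histone mRNAs are recognised, so 1 example of each of its 7 forms is shown as DNA, 5' to 3', from the GENCODE release 29 transcripts on GRCh38. Capitals mark the 16 nt of the stem-loop and lower case the 5 nt on each side.
H2AC25 (chr1:228457364-228457389, minus strand): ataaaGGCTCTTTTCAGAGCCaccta
H2BC5 (chr6:26158582-26158607, plus strand): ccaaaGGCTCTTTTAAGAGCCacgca
H2AC11 (chr6:27133510-27133535, plus strand): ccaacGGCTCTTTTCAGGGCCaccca
H3C6 (chr6:26225591-26225616, plus strand): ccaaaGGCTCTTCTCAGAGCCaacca
H4C8 (chr6:26285126-26285151, minus strand): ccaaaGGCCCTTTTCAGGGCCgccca
H4C15 (chr1:149860764-149860789, minus strand): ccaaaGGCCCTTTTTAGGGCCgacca
H2AX (chr11:119094893-119094918, minus strand): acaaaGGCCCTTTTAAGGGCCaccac
The histone stem-loop consensus was searched on the transcript strand in the first 100 nt after each annotated stop codon, and it was found in 20 of 29 cluster core genes, 1 of 9 variant genes (H2AX) and 0 of 3 linker genes. For the linker genes the search was limited, because H1-2 had 0 nt and H1-4 57 nt of annotated sequence after the stop codon, and only H1-10 had a full window. Where found, the stem-loop began 23 to 57 nt after the stop codon. The form shown for H2AC25 was held by 12 members, those shown for H2BC5, H4C8 and H4C15 by 2 members each, and those of H2AC11, H3C6 and H2AX by 1 member each. Of the 9 cluster core genes without it, 8 had between 0 and 51 nt of annotated sequence after the stop codon, with H3C2 counted at 0, and only H2BC11 had a full window without these letters. Among 12397 other genes that passed the count filter and had a full window, 0 held the consensus on the transcript strand and 0 on the opposite strand.

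Library totals ran from 15103945 to 24441159 reads in heavy polysomes, 16809945 to 19558832 in light polysomes and 13447139 to 16145486 in monosomes. Cluster core mRNAs were read thinly: all 29 genes together had 629, 712 and 729 reads in the heavy polysome libraries of replicates 1 to 3, 2575, 780 and 2557 in the light polysome libraries, and 1211, 963 and 1387 in the monosome libraries. The 9 variant genes together had 56797, 56908 and 50441 reads in heavy polysomes, 162430, 75979 and 179876 in light polysomes, and 24362, 16282 and 27799 in monosomes. The light polysome library of replicate 2 was low in both classes. Across the 12720 genes kept, on the log2 scale, it correlated with the heavy polysome libraries at r of 0.939, 0.928 and 0.953 and with the other light polysome libraries at 0.899 and 0.889. Counts and calls in the contrasts with the light fraction are therefore given without that replicate too. Mean ribosome load and shares of signal also use that library, and the counts of members called by ribosome load are not given without it. In these bulk libraries, fewer cells carrying a histone mRNA and less of it per cell cannot be told apart. Whether the cluster core reads came from mRNAs ending in the stem-loop or from polyadenylated forms was not tested. With the selection of RNA not given, their positions below describe only the forms that were read.

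**Figure D1:**
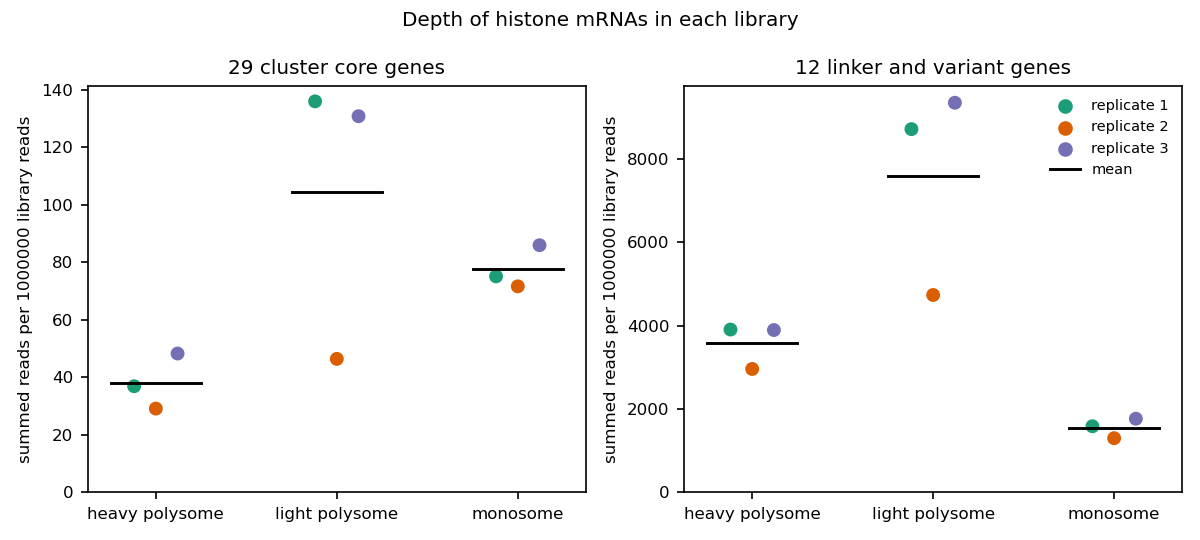
Summed reads per 1000000 library reads (vertical axis) of the 29 cluster core genes (left) and the 12 linker and variant genes (right) in the heavy polysome, light polysome and monosome libraries; each point is 1 library, coloured by replicate, and bars are means. The light polysome point of replicate 2 lies far below the other light polysome points in both panels, at 46.4 against 135.9 and 130.7 for the cluster core genes.

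Genes were kept for testing with a mean of at least 10 reads over the 9 libraries, which left 12720 genes, and among the members 23 of 29 cluster core genes, 3 of 3 linker genes and 9 of 9 variant genes. The members nearest this limit were H3C2 at 9.33 mean reads, which was left out, and H2BC18 at 11.9, which was kept. Levels below are the authors' normalized counts, which are reads divided by 1 size factor per library. A single read was worth 0.452 to 0.861 normalized counts in the heavy polysome libraries, 0.698 to 0.747 in the light polysome libraries and 1.61 to 2.37 in the monosome libraries, so a low monosome count moves in coarser steps. Differences between fractions were tested with limma after a log2 transform of the normalized count + 1, and a change was called at a Benjamini-Hochberg adjusted p under 0.05 over all genes kept. Mean ribosome load (MRL) weights the share of a gene's signal by 6 in heavy polysomes, 2.5 in light polysomes and 1 in monosomes, and is given as mean ± SD over the 3 gradients. Because each library was scaled to the typical gene, every share and fold change is relative to other mRNAs, not an amount of RNA in the fraction.

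Cluster core histone mRNAs lay towards the monosome end of the gradient. Between heavy polysomes and monosomes, 16 of the 23 cluster core genes kept were lower in heavy polysomes, where 24.4% of all genes kept were lower, and 7 did not pass. The median log2 fold change, heavy polysome over monosome, was -2.03 for the cluster core genes, with a range of -4.41 to -0.48, against 0.13 for all genes kept. By limma 0 of the 23 were higher, where 24.7% of all genes were; 0 were higher at an unadjusted p under 0.05, and edgeR and DESeq2 also called 0. Among the linker genes 1 was higher (H1-10) and 2 were lower (H1-2 and H1-4), and among the variants 2 were higher (MACROH2A1 and MACROH2A2) and 1 was lower (H2AZ2). Scaling each library by its total reads in place of the authors' size factors moved the median gene by 1.39 on this log2 scale; 6 members, all cluster core genes, were then lower and 7 higher, while relative to that median gene the counts were again 19 lower and 3 higher over all 35 members kept. With genes of at least 50 mean reads, 5 of 5 cluster core genes were lower. The shares of all genes called under that filter and under total-read scaling are not given. In the main fit 58.9% of 728 other genes of 309 to 498 nt, the coding lengths of the cluster core genes kept, were lower.

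**Figure D2:**
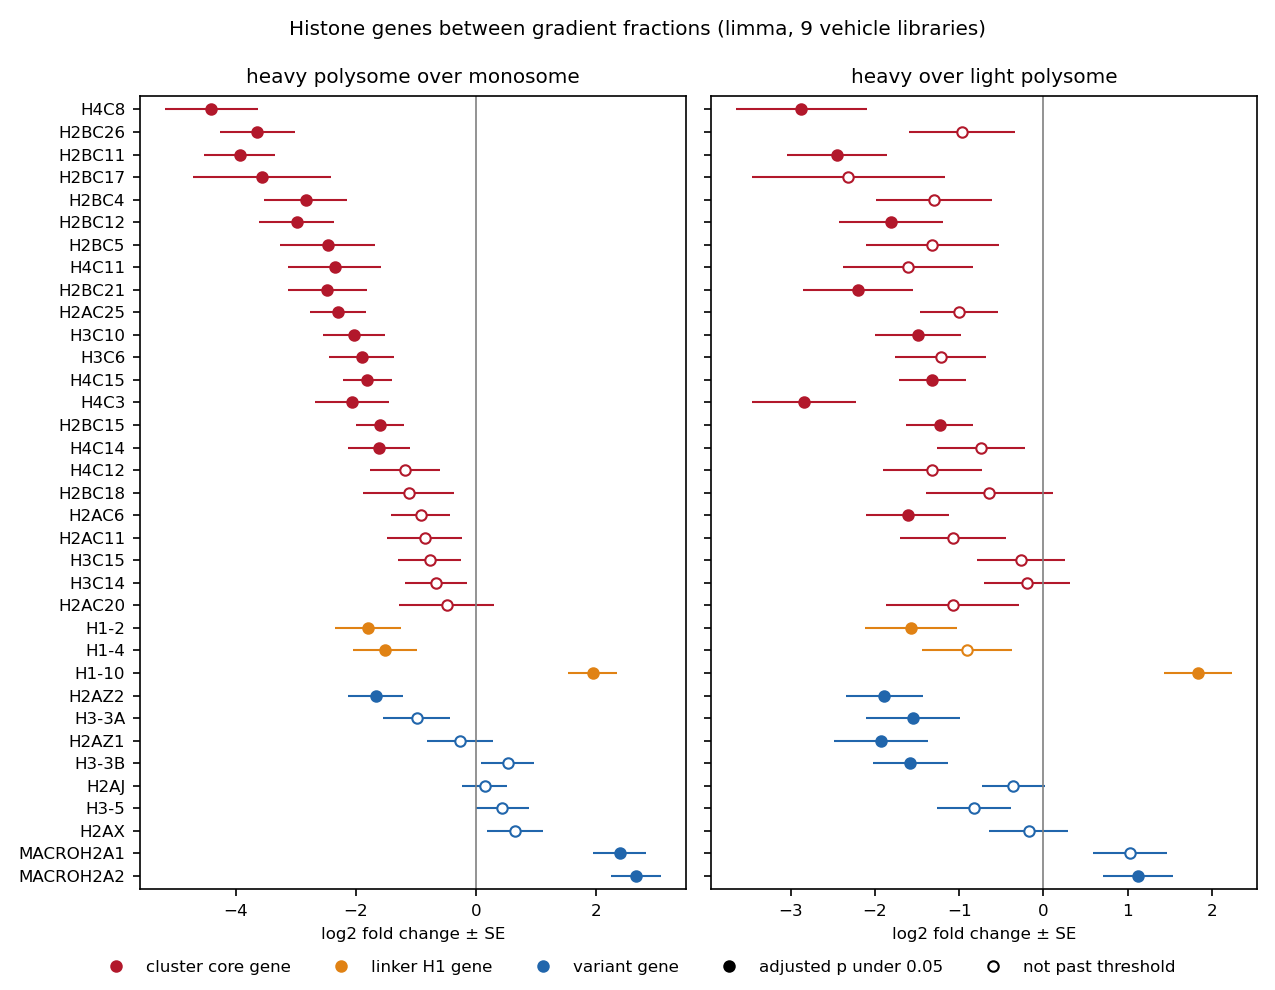
Log2 fold change ± SE of each histone gene kept (rows) for heavy polysome over monosome (left) and heavy over light polysome (right); filled points passed an adjusted p of 0.05, open points did not. The 23 cluster core genes lie left of 0 in both panels with the authors' size factors, at medians of -2.03 and -1.32, while H1-10 and both macroH2A genes lie right of 0; with total-read scaling, which moves the median gene by 1.39 in the left panel, 7 of the cluster core genes named in the text move to the right of 0 there.

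Ribosome load gave a like order of genes, but it is computed from the same 9 libraries and is not an independent result. MRL was lower than that of the median gene for 17 of 23 cluster core genes, 2 linker genes and 1 variant gene, where 26% of all genes kept were lower, and it was higher for 1 linker gene and 2 variant genes, where 22.2% of all genes were higher. Here too 0 cluster core genes were higher by limma, with 0 at an unadjusted p under 0.05. By family, MRL was lower for 8 of 9 H2B, 6 of 6 H4, 2 of 4 H3 and 1 of 4 H2A cluster genes. When the combined light and heavy polysome share was tested in place of MRL, the number of members called lower fell to 2, H4C8 and H2BC11, against 20 with MRL; over all genes kept, 982 were then lower, against 3303 with MRL. With genes of at least 50 mean reads, 7 members were lower, among them 5 of 5 cluster core genes. The share of all genes lower under that filter is not given. In the main fit 63.9% of 728 other genes of 309 to 498 nt were lower in MRL.

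**Figure D3:**
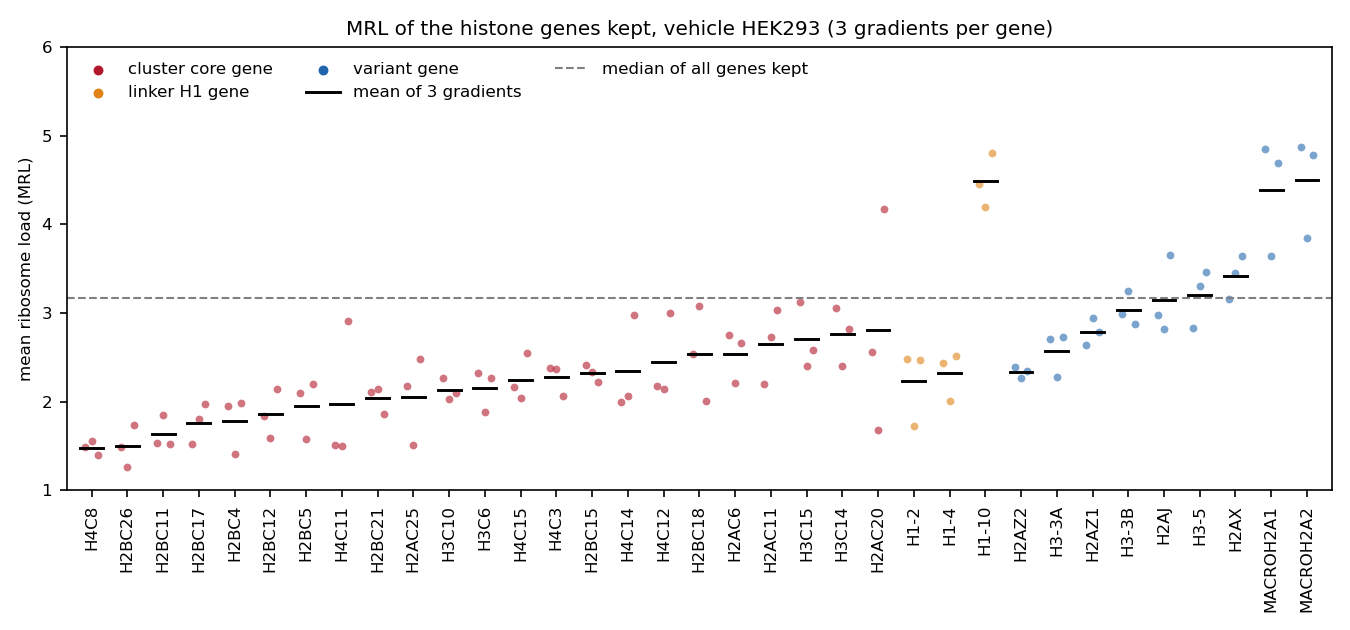
MRL (vertical axis) of each of the 35 histone genes kept, ordered by mean within cluster core, linker and variant genes; points are the 3 gradients, bars their mean, and the dashed line the median of all genes kept at 3.17. Cluster core means run from 1.48 for H4C8 to 2.80 for H2AC20, all below the dashed line, and the variants run from 2.34 for H2AZ2 to 4.50 for MACROH2A2.

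The H4 genes encode the core histone that pairs with H3, and they included the lowest of the members kept. H4C8 (chr6:26277609-26285638) had normalized counts of 0.818, 0.903 and 1.72 in heavy polysomes, 27.0, 4.19 and 24.6 in light polysomes, and 64.7, 14.2 and 88.8 in monosomes. These rest on 1, 2 and 2 reads in heavy polysomes and 30, 6 and 55 in monosomes, and each heavy polysome value lay below every light polysome and monosome value. Its log2 fold change, heavy polysome over monosome, was -4.41, SE 0.78, adjusted p = 0.000589, and with so few reads its size depends on the pseudocount, from -4.78 with 0.5 to -3.03 with 5. H4C8 had 2.35% ± 2.04 in heavy polysomes, 24.1% ± 4.40 in light polysomes, 73.6% ± 3.59 in monosomes, and an MRL of 1.48 ± 0.0819, lower than the median gene (log2 difference -1.10, SE 0.14, adjusted p = 0.000323).

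H4C11 and H4C12 share all 75-nt windows of their coding sequence with each other, as do H4C14 and H4C15, so how reads were divided within each pair is uncertain. H4C11 (chr6:27824108-27824480) had 2.46, 1.81 and 8.61 in heavy polysomes, 14.6, 4.89 and 27.6 in light polysomes, and 49.6, 26.1 and 8.07 in monosomes normalized counts. It was low in heavy polysomes in replicates 1 and 2, but its monosome value in replicate 3 lay below its heavy polysome value there, so the groups overlap. The fold change between these fractions passed (-2.35, SE 0.77, adjusted p = 0.0217), but did not without replicate 1 (adjusted p = 0.232) or replicate 2 (adjusted p = 0.0529).

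H4C12 (chr6:27831216-27831527) had 5.73, 6.78 and 13.8 in heavy polysomes, 26.2, 10.5 and 37.3 in light polysomes, and 25.9, 26.1 and 11.3 in monosomes normalized counts, and heavy polysome and monosome values overlapped through replicate 3. Heavy over monosome did not pass for H4C12 (-1.18, SE 0.59, adjusted p = 0.11); its MRL of 2.44 ± 0.486 was lower than the median gene (-0.39, SE 0.15, adjusted p = 0.0493), a call lost without replicate 1 (adjusted p = 0.257) or replicate 2 (adjusted p = 0.119). H4C14 (chr1:149832659-149839767) had 13.9, 13.6 and 34.5 in heavy polysomes, 54.7, 16.1 and 36.6 in light polysomes, and 84.1, 56.9 and 43.6 in monosomes normalized counts. Each heavy polysome value of H4C14 lay below every monosome value, by the least in replicate 3. The difference passed (-1.61, SE 0.52, adjusted p = 0.0198), but not without replicate 1 (adjusted p = 0.212), and the lower MRL of 2.35 ± 0.552 likewise did not pass without replicate 1 (adjusted p = 0.149). The remaining H4 genes kept were lower in heavy polysomes than in monosomes: H4C15 had a fold change of -1.80, SE 0.40, adjusted p = 0.00244 and H4C3 one of -2.07, SE 0.61, adjusted p = 0.0131. H4C3 had 8.06% ± 4.68 in heavy polysomes, 57.9% ± 11.5 in light polysomes, 34.0% ± 9.15 in monosomes, with light polysomes as its leading fraction.

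H2B genes, whose product pairs with H2A, showed the lowest loads as a family, with a median log2 fold change of -2.83 for heavy polysome over monosome and 8 of 9 lower. H2BC26 (chr1:228458107-228460470), from the small histone cluster on chromosome 1, had 3.27, 4.52 and 4.31 in heavy polysomes, 10.2, 2.79 and 20.9 in light polysomes, and 51.7, 94.8 and 46.8 in monosomes normalized counts. Its heavy polysome values all lay below its monosome values, and its light polysome values also all lay below them. H2BC26 was lower in heavy polysomes (-3.64, SE 0.63, adjusted p = 0.000521) and was the only cluster core gene that limma called lower in light polysomes than in monosomes (-2.67, SE 0.63, adjusted p = 0.00982), where 10.2% of all genes kept were lower; DESeq2 on the reads called 3. It held 79.1% ± 13.9 of its signal in monosomes and had an MRL of 1.49 ± 0.236.

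H2BC11 (chr6:27125897-27132750) had 4.09, 8.58 and 8.61 in heavy polysomes, 63.4, 16.8 and 65.7 in light polysomes, and 151, 54.5 and 197 in monosomes normalized counts. Heavy polysome values lay below all light polysome and monosome values, and light and monosome values overlapped. H2BC11 was lower in heavy polysomes than in monosomes (-3.93, SE 0.59, adjusted p = 0.000223) and than in light polysomes (-2.45, SE 0.59, adjusted p = 0.00997), with an MRL of 1.63 ± 0.189. H2BC12, the H2B gene with most reads at a mean of 253, had a fold change of -2.99, SE 0.62, adjusted p = 0.00159 between heavy polysomes and monosomes and an MRL of 1.86 ± 0.275, although only 50% of its 75-nt coding windows occur in no other gene.

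The 2 H2B genes with the highest loads were H2BC15 and H2BC18. H2BC15 (chr6:27837760-27865798) had 20.5, 39.7 and 28.4 in heavy polysomes, 64.9, 58.0 and 85.1 in light polysomes, and 56.1, 116 and 107 in monosomes normalized counts. Its heavy polysome values lay below all monosome and light polysome values, the highest of them being that of replicate 2. H2BC15 was lower in heavy polysomes (-1.60, SE 0.40, adjusted p = 0.00502), a call lost without replicate 3 (adjusted p = 0.073), and its MRL was 2.32 ± 0.0935. H2BC18 (chr1:149782689-149812373), at a mean of 11.9 reads, had 9.82, 4.07 and 5.17 in heavy polysomes, 24.1, 3.49 and 10.5 in light polysomes, and 21.6, 4.74 and 25.8 in monosomes normalized counts. Heavy polysome and monosome values overlapped because the monosome value of replicate 2 was low. Its fold change did not pass (-1.12, SE 0.76, adjusted p = 0.232), and did without replicate 2 (adjusted p = 0.0294). The other 5 H2B genes kept (H2BC17, H2BC4, H2BC5, H2BC21 and H2BC12) had MRLs between 1.76 and 2.04 and were each lower in heavy polysomes than in monosomes. The call of H2BC17 (-3.56, SE 1.15, adjusted p = 0.0196) rests on few reads. It had 0, 3 and 2 reads in heavy polysomes and 29, 3 and 12 in monosomes.

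Of the 4 H2A cluster genes kept, 1 was lower in heavy polysomes than in monosomes. H2AC25 (chr1:228456979-228457873), next to H2BC26 on chromosome 1 and with 298 mean reads the deepest of the cluster core genes, had 167, 64.6 and 198 in heavy polysomes, 367, 138 and 343 in light polysomes, and 645, 834 and 478 in monosomes normalized counts. All its monosome values lay above all its heavy polysome and light polysome values. H2AC25 was lower in heavy polysomes than in monosomes (-2.29, SE 0.46, adjusted p = 0.00137), with 13.3% ± 6.65 in heavy polysomes, 26.0% ± 11.1 in light polysomes, 60.7% ± 17.5 in monosomes and an MRL of 2.05 ± 0.494. Its difference between light polysomes and monosomes did not pass (-1.29, SE 0.46, adjusted p = 0.0657).

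H2AC6 (chr6:26124145-26139116) had 12.3, 11.7 and 15.5 in heavy polysomes, 52.5, 24.4 and 57.5 in light polysomes, and 15.1, 42.6 and 25.8 in monosomes normalized counts, and its heavy polysome values all lay below its light polysome values but overlapped the monosome values. Heavy over monosome did not pass for H2AC6 (-0.92, SE 0.50, adjusted p = 0.137), and heavy over light did (-1.61, SE 0.50, adjusted p = 0.025). H2AC11 (chr6:27133042-27135291) had 4.91, 5.42 and 10.3 in heavy polysomes, 24.1, 6.29 and 20.9 in light polysomes, and 21.6, 9.48 and 9.69 in monosomes normalized counts, with overlap between heavy polysomes and monosomes (-0.85, SE 0.63, adjusted p = 0.273). H2AC20 (chr1:149886975-149887364) had 6.55, 4.52 and 30.2 in heavy polysomes, 37.2, 11.9 and 23.9 in light polysomes, and 12.9, 42.6 and 4.84 in monosomes normalized counts, and its heavy polysome value in replicate 3 lay above its other heavy polysome values and above 2 of its 3 monosome values. H2AC20 had the widest spread of MRL among the cluster core genes kept, 2.56, 1.68 and 4.17 in replicates 1 to 3. Its fold change of -0.48, SE 0.79, adjusted p = 0.629 turned positive without replicate 2, at 0.76 with adjusted p = 0.355.

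The H3 genes divided. H3C10 (chr6:27810064-27811300) had 14.7, 7.23 and 14.6 in heavy polysomes, 59.1, 16.8 and 41.1 in light polysomes, and 53.9, 35.5 and 67.8 in monosomes normalized counts, and each heavy polysome value lay below every light polysome and monosome value. H3C10 was lower in heavy polysomes than in monosomes (-2.03, SE 0.52, adjusted p = 0.00548) and than in light polysomes (-1.49, SE 0.52, adjusted p = 0.0401), with an MRL of 2.13 ± 0.125. H3C6 (chr6:26224199-26227473) had 12.3, 4.52 and 7.75 in heavy polysomes, 19.0, 10.5 and 34.3 in light polysomes, and 36.7, 28.4 and 29.1 in monosomes normalized counts, with no heavy polysome value reaching a monosome value. Its fold change passed (-1.90, SE 0.54, adjusted p = 0.0102) but not without replicate 1 (adjusted p = 0.0549) or replicate 3 (adjusted p = 0.0648).

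H3C14 and H3C15 have identical coding sequences and cannot be told apart by reads of this length. H3C14 (chr1:149839538-149841193) had 26.2, 10.8 and 19.0 in heavy polysomes, 35.0, 10.5 and 22.4 in light polysomes, and 28.0, 28.4 and 29.1 in monosomes normalized counts. H3C15 (chr1:149852619-149854274) had 26.2, 10.8 and 15.5 in heavy polysomes, 33.5, 9.78 and 23.9 in light polysomes, and 25.9, 28.4 and 32.3 in monosomes normalized counts, nearly the same values. In replicates 2 and 3 of both genes the heavy polysome value lay below the monosome value, and in replicate 1 the values were close. Neither gene passed, at -0.67, SE 0.51, adjusted p = 0.294 for H3C14 and -0.77, SE 0.52, adjusted p = 0.233 for H3C15, and their MRLs of 2.76 ± 0.330 and 2.70 ± 0.371 were the highest of the H3 cluster genes.

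Linker histones bind outside the nucleosome core, and the 3 linker genes did not lie alike. H1-2 (chr6:26055787-26056428), a linker gene of the chromosome 6 cluster, had 45.0, 34.8 and 53.4 in heavy polysomes, 212, 44.0 and 243 in light polysomes, and 110.0, 251 and 132 in monosomes normalized counts. Its heavy polysome values lay below all monosome values, and its light polysome value in replicate 2 was far below the other 2. H1-2 was lower in heavy polysomes than in monosomes (-1.79, SE 0.55, adjusted p = 0.015), with an MRL of 2.23 ± 0.433. H1-4 (chr6:26156354-26157107), from the same cluster, had 12.3, 11.3 and 15.5 in heavy polysomes, 43.0, 9.78 and 36.6 in light polysomes, and 32.3, 49.8 and 35.5 in monosomes normalized counts. Again no heavy polysome value reached a monosome value, and the light polysome value of replicate 2 was the lowest of all 9. H1-4 was lower in heavy polysomes (-1.51, SE 0.53, adjusted p = 0.0306), a call lost without replicate 1 (adjusted p = 0.112) or replicate 3 (adjusted p = 0.0958), and its MRL of 2.32 ± 0.274 was lower than the median gene (-0.46, SE 0.13, adjusted p = 0.0138).

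H1-10, a linker gene on chromosome 3, lies outside the cluster. H1-10 (chr3:129314771-129316277) had 7989, 6958 and 7185 in heavy polysomes, 1772, 2507 and 1979.7 in light polysomes, and 2553, 2599 and 1053 in monosomes normalized counts. Every heavy polysome value lay above every light polysome and monosome value, and light polysomes and monosomes overlapped. H1-10 was higher in heavy polysomes than in monosomes (1.95, SE 0.41, adjusted p = 0.00172; adjusted p = 0.0557 without replicate 3) and than in light polysomes (1.83, SE 0.41, adjusted p = 0.00781), where 14.7% of all genes kept were higher. It held 64.3% ± 6.34 of its signal in heavy polysomes and its MRL of 4.49 ± 0.307 was higher than the median gene (0.50, SE 0.10, adjusted p = 0.00231).

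Among the H2A variants, H2A.Z is a replacement histone of promoters and enhancers encoded by H2AZ1 and H2AZ2. H2AZ2 (chr7:44826791-44848083) had 1637, 975 and 1807 in heavy polysomes, 7820.3, 2678 and 7014 in light polysomes, and 4869, 3352 and 5708 in monosomes normalized counts. Heavy polysome values lay below all light polysome and monosome values. H2AZ2 was lower in heavy polysomes than in monosomes (-1.67, SE 0.46, adjusted p = 0.00866; adjusted p = 0.0814 without replicate 1) and than in light polysomes (-1.89, SE 0.46, adjusted p = 0.0101), where 17.5% of all genes kept were lower. Its MRL of 2.34 ± 0.0611 was lower than the median gene (-0.44, SE 0.09, adjusted p = 0.00404), a call lost without replicate 1 (adjusted p = 0.0742). H2AZ1 (chr4:99948086-99950388) had 7961, 5946 and 9694 in heavy polysomes, 39862, 12649 and 50054 in light polysomes, and 12935, 6513 and 9417 in monosomes normalized counts, with heavy polysome values below all light polysome values and overlapping the monosome values. H2AZ1 was higher in light polysomes than in monosomes (1.66, SE 0.55, adjusted p = 0.0494), where 8.47% of all genes kept were higher, and H2AZ2 did not pass there (0.22, adjusted p = 0.782). The difference between the 2 genes was not tested. The H2AZ1 call was at the threshold. It was lost with no filter (adjusted p = 0.0522), with total-read scaling relative to the median gene (0.052), and without replicate 1 (0.305) or replicate 3 (0.341). DESeq2 (0.00106) and edgeR (0.0289) kept it. Heavy over monosome did not pass for H2AZ1 (-0.26, SE 0.55, adjusted p = 0.712), and it held 62.8% ± 11.3 in light polysomes with an MRL of 2.79 ± 0.150.

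H2AX, the variant phosphorylated beside DNA breaks and the only variant here with a stem-loop after its stop codon, lies at chr11:119093854-119095467. It had 2593, 1341 and 2585 in heavy polysomes, 3571, 1388 and 2605 in light polysomes, and 2335, 855 and 1172 in monosomes normalized counts. All 3 fractions were lowest in replicate 2, and the fractions overlapped. Its fold changes did not pass, at 0.65, SE 0.47, adjusted p = 0.264 for heavy polysome over monosome and 0.82, SE 0.47, adjusted p = 0.241 for light polysome over monosome. H2AX had 36.2% ± 5.17 in heavy polysomes, 40.6% ± 1.68 in light polysomes, 23.3% ± 4.55 in monosomes and an MRL of 3.42 ± 0.247, above the mean MRL of every cluster core gene with a stem-loop. H2AJ (chr12:14774383-14778002), an H2A variant known from senescent cells, had 121, 86.7 and 174 in heavy polysomes, 169, 119 and 192 in light polysomes, and 144, 130.3 and 71.0 in monosomes normalized counts with overlap between fractions. Its heavy over monosome fold change did not pass (0.15, SE 0.38, adjusted p = 0.764) and turned to -0.42 without replicate 3; its MRL was 3.15 ± 0.440.

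H3.3, the H3 variant placed outside replication, is encoded by H3-3A and H3-3B, and H3-5 is a related gene known from testis. H3-3A (chr1:226061851-226072001), the member with most reads at a mean of 28077, had 16874, 6958 and 15847 in heavy polysomes, 45852, 19281 and 53212 in light polysomes, and 26797, 23767 and 22682 in monosomes normalized counts; its coding sequence has no 75-nt window of its own in the annotation, so part of its count may belong to copies. Heavy polysome values lay below all monosome values and below all light polysome values. Heavy over monosome did not pass (-0.99, SE 0.56, adjusted p = 0.155) and heavy over light did (-1.55, SE 0.56, adjusted p = 0.0461), with an MRL of 2.57 ± 0.259. The heavy over light call was lost with no filter (adjusted p = 0.052) or with total-read scaling relative to the median gene (adjusted p = 0.0511). H3-3B (chr17:75776434-75785893) had 5429, 4185 and 4931 in heavy polysomes, 17710.0, 9182 and 18466 in light polysomes, and 3916, 2097 and 4500.1 in monosomes normalized counts. Light polysome values lay above all heavy polysome and monosome values. H3-3B was higher in light polysomes than in monosomes (2.11, SE 0.44, adjusted p = 0.00527) and lower in heavy than in light polysomes (-1.58, SE 0.44, adjusted p = 0.0172), with 63.7% ± 3.74 in light polysomes and an MRL of 3.04 ± 0.189. H3-5 (chr12:31791185-31792241) had 32.7, 47.9 and 65.5 in heavy polysomes, 136, 45.4 and 94.8 in light polysomes, and 32.3, 40.3 and 30.7 in monosomes normalized counts, with the light polysome value highest in replicates 1 and 3. None of its contrasts passed (0.44, SE 0.44, adjusted p = 0.418 for heavy polysome over monosome, 1.27, SE 0.44, adjusted p = 0.0573 for light polysome over monosome), and its MRL was 3.20 ± 0.329.

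MacroH2A carries a large macro domain behind its histone fold and marks silenced chromatin. MACROH2A1 (chr5:135333900-135399914) had 8732, 4144 and 5989.5 in heavy polysomes, 2419, 5503 and 1929.7 in light polysomes, and 1143, 1343 and 972 in monosomes normalized counts. Heavy and light polysome values lay above all monosome values, and in replicate 2 the light polysome value was above the heavy one. MACROH2A1 was higher in heavy polysomes than in monosomes (2.39, SE 0.44, adjusted p = 0.00078) and had an MRL of 4.39 ± 0.659, whose difference from the median gene (0.46, SE 0.11, adjusted p = 0.0064) did not pass without replicate 1 (adjusted p = 0.122). MACROH2A2 (chr10:70052796-70112280) had 3103, 2021 and 2359 in heavy polysomes, 898, 2225 and 711 in light polysomes, and 358, 476 and 334 in monosomes normalized counts, with the same order of fractions in each replicate as MACROH2A1. MACROH2A2 was higher in heavy polysomes than in monosomes (2.67, SE 0.41, adjusted p = 0.000258), and its MRL was 4.50 ± 0.565 (0.50, SE 0.09, adjusted p = 0.00211). In monosomes MACROH2A1 held 10.8% ± 1.47 of its signal and MACROH2A2 9.37% ± 1.01, the lowest monosome shares of the members.

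Shares of signal by class show where the classes part within each gradient. For the cluster core genes the median share in heavy polysomes was 9.90%, 12.1% and 12.5% in replicates 1 to 3, in light polysomes 38.9%, 21.1% and 40.4%, and in monosomes 50.9%, 65.5% and 43.2%. For the variant genes the median share was 20.1%, 27.1% and 34.3% in heavy polysomes, 51.2%, 38.7% and 48.3% in light polysomes, and 21.3%, 25.9% and 16.1% in monosomes. Over all genes kept each fraction's median stayed between 30.3% and 32.8%. The median share of the cluster core genes in heavy polysomes thus stayed within a few percentage points over the 3 gradients, although by family it moved more, being 7.89%, 12.8% and 18.9% for H4 and 12.9%, 11.3% and 22.4% for H2A genes. The division between light polysomes and monosomes moved farther: light polysomes were the leading fraction of 11, 1 and 10 of the 23 cluster core genes in replicates 1 to 3, and monosomes of 12, 22 and 12.

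**Figure D4:**
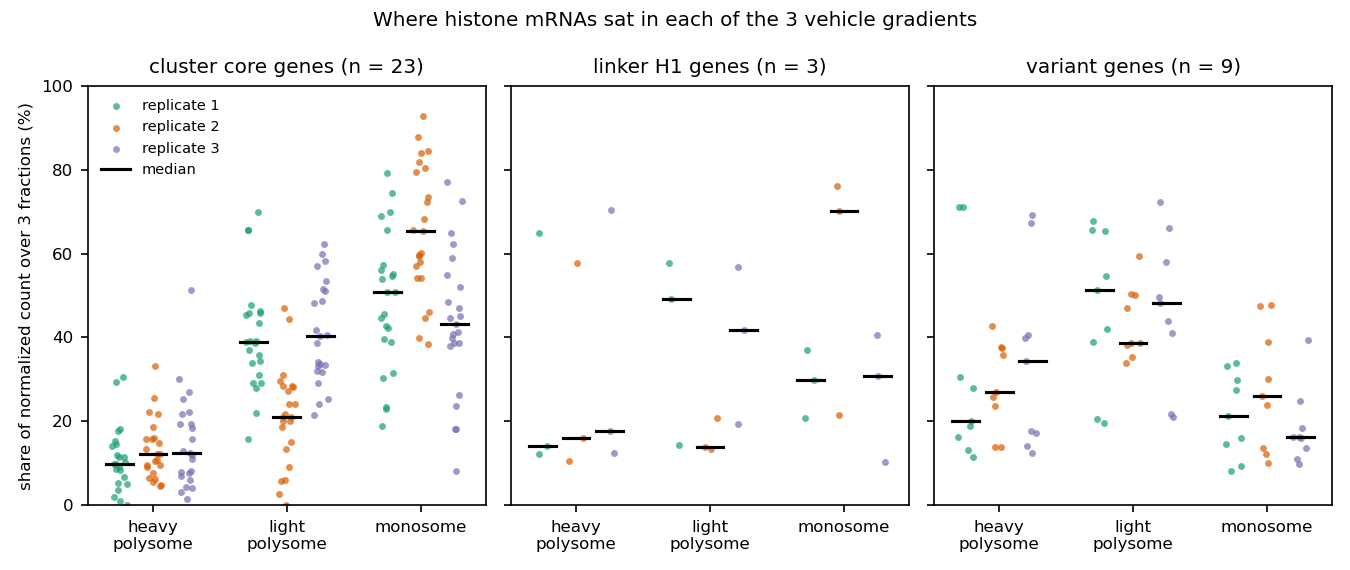
Share of each histone gene's normalized count (vertical axis, %) in the heavy polysome, light polysome and monosome fraction of each gradient, for cluster core, linker and variant genes kept; points are genes, colours are replicates and bars are medians. In the left panel replicate 2 has a light polysome median of 21.1% and a monosome median of 65.5%, apart from the other gradients, while the heavy polysome medians lie between 9.90% and 12.5%.

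Contrasts that use the light fraction were accordingly less settled. Between heavy and light polysomes 9 of 23 cluster core genes, 1 linker gene and 4 variant genes were lower in heavy polysomes, where 17.5% of all genes kept were lower, and H1-10 and MACROH2A2 were higher, where 14.7% were. These are the limma counts. DESeq2 also called the cluster core genes H2BC4, H2BC5, H2BC17, H3C6, H4C11 and H4C12 lower, and edgeR the same genes except H3C6 and H4C11. The shares of all genes called by DESeq2 and edgeR are not given. The MACROH2A2 call was at the threshold (1.13, SE 0.41, adjusted p = 0.0495) and was lost with DESeq2, edgeR, no filter, a pseudocount of 0.5 or total-read scaling (adjusted p from 0.05004 to 0.108 over these). Without replicate 2 these counts over all members were 24 lower and 3 higher, against 14 lower and 2 higher with all replicates, and without replicate 1 or replicate 3 they were 0. All genes moved likewise: without replicate 2, 30.2% were lower and 29.9% higher, while without replicate 1 0 genes were called and without replicate 3 only 1 was. All 16 members called between heavy and light polysomes were still called without replicate 2. For MACROH2A2 the fold change was then 1.76 (adjusted p = 7.08e-05), for H1-10 2.02 (adjusted p = 0.00029), for H2AZ2 -2.11 (adjusted p = 2.2e-05), for H3-3A -1.59 (adjusted p = 0.00066) and for H2BC11 -3.23 (adjusted p = 2.83e-05). Between light polysomes and monosomes 4 variant genes were higher by limma (H2AZ1, H3-3B, MACROH2A1 and MACROH2A2), and DESeq2 and edgeR also called H3-5 higher. By limma 0 cluster core genes were higher there, with 0 at an unadjusted p under 0.05 and 0 by edgeR or DESeq2. Without replicate 2, 9 members were higher and 3 lower in light polysomes than in monosomes, where 17.3% of all genes kept were higher and 18.1% lower, and 1 of the 9 was a cluster core gene, H2AC6 (1.43, adjusted p = 0.024). Without replicate 1 the member counts were 0 and 0, where 1.17% and 3.25% of all genes were called, and without replicate 3 they were 1 (H3-3B) and 1 (H2BC26), where 1.94% and 5.42% were. All 5 members called between light polysomes and monosomes with all replicates were also called without replicate 2, with fold changes of 2.02 for H2AZ1 (adjusted p = 0.000379), 2.11 for H3-3B (adjusted p = 8.91e-05) and -1.68 for H2BC26 (adjusted p = 0.0282), the last closer to 0 than its -2.67 with all replicates.

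Coding length moves with these results, since genes with short coding sequences had low ribosome loads throughout the table. All cluster core genes kept had coding sequences of 309 to 498 nt. Among 505 other genes of 301 to 450 nt the median MRL was 2.34 ± 0.10, and 68.1% were lower in MRL and 62.6% lower in heavy polysomes than in monosomes. Of the 22 cluster core genes in that range, 16 were lower in MRL and 15 lower in heavy polysomes, which is near the share among the other genes of that length. Their median MRL was 2.14, with 14 below the median of the other genes, 6 below their 25th percentile of 1.94 and 1 (H2AC20) above their 75th percentile of 2.77. Within that range the 6 H4 genes had a median of 2.26 and the 8 H2B genes one of 1.82.

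The variants of that length lay on the other side. H2AJ, H2AX, H2AZ1, H2AZ2, H3-3A, H3-3B and H3-5 had coding sequences of 384 to 429 nt and a median MRL of 3.04; 5 of the 7 lay above the 75th percentile of the other genes of 301 to 450 nt, 0 below the 25th percentile and 1 (H2AZ2) below the median. H1-2 and H1-4, with 639 and 657 nt, had MRLs below the 25th percentile of 2.49 for 1741 other genes of 601 to 900 nt, and H1-10, also of 639 nt, lay above the 75th percentile of 3.68. Read depth moved with the classes too: 1483 other genes with a mean of 10 to 50 reads had a median MRL of 2.85 ± 0.06. The part of coding length and of read depth in the class difference was not tested.

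**Figure D5:**
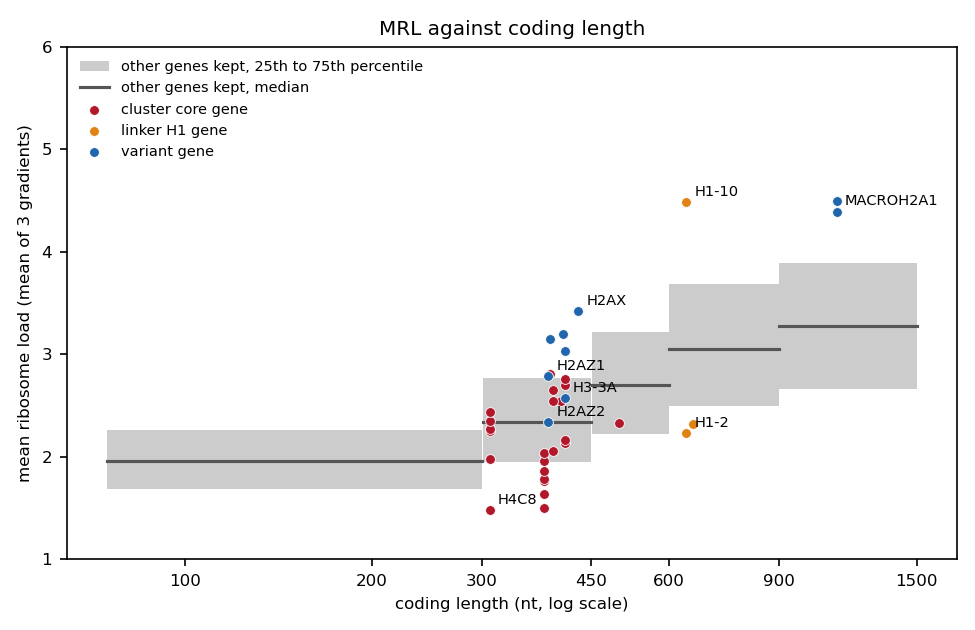
Mean MRL over 3 gradients (vertical axis) against coding length in nt (horizontal axis, log scale) for the histone genes kept; grey boxes span the 25th to the 75th percentile of other genes in each length range, and dark lines are their medians. Between 301 and 450 nt the cluster core genes scatter around and below the grey median of 2.34, and 5 of 7 variant genes lie above the box.

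Set against each other within each gradient, the median MRL of the cluster core genes was 2.18, 2.03 and 2.23, that of the 12 linker and variant genes 2.90, 3.09 and 3.17, and that of all genes kept 3.17, 3.17 and 3.16 in replicates 1 to 3. The linker genes, among them H1-2 and H1-4 of the chromosome 6 cluster, are pooled with the variants in this comparison. The 9 variant genes alone had medians of 2.98, 3.24 and 3.46, farther above those of the cluster core genes. The difference, cluster core minus linker and variant genes, was -0.73, -1.06 and -0.94, with a mean of -0.91 ± 0.17 (SD, n = 3), so it was below 0 in 3 of 3 gradients. No test was made of this difference, because genes are not replicates of a condition. Without H1-10 and the macroH2A genes, which have the highest mean MRLs of the members kept, the mean difference was -0.63. This alternative was chosen after the data were seen. It is not a removal by coding length, because H1-10 has 639 nt and the other linker genes, with 639 and 657 nt, stayed in.

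The factors that make, hold and destroy histone mRNAs were divided much as all genes were. Of 21 genes of histone mRNA processing and decay, 5 were higher in MRL, where 22.2% of all genes kept were, 4 were lower, where 26% were, and 12 did not pass, with a median of 3.42 ± 0.36. SLBP, which binds the stem-loop, had 4081, 2127 and 2872 in heavy polysomes, 1921, 2423 and 1644 in light polysomes, and 908, 701 and 686 in monosomes normalized counts, every heavy polysome value lying above every monosome value. SLBP was higher in heavy polysomes than in monosomes (1.94, SE 0.35, adjusted p = 0.00072), with an MRL of 4.11 ± 0.344. CPSF2, a subunit of the cleavage complex, and CSTF2, a cleavage stimulation factor, had MRLs of 4.09 ± 0.249 and 4.01 ± 0.484. At the other end stood LSM11 at 2.06 ± 0.0357 and LSM10 at 1.14 ± 0.0443, the proteins particular to the U7 snRNP that directs histone 3' end cleavage, and LSM1, of the decay-linked LSM ring, at 1.87 ± 0.130. LSM10 was almost wholly monosomal, with 81.8, 88.5 and 132 in heavy polysomes, 405, 77.5 and 439 in light polysomes, and 7937, 5162 and 6422 in monosomes normalized counts, and was lower in heavy polysomes (-6.01, SE 0.53, adjusted p = 7.9e-06).

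Histone chaperones and deposition factors, which escort the proteins onto DNA, had a higher median: of 34 genes 15 were higher in MRL, where 22.2% of all genes kept were, 3 were lower, where 26% were, and 16 did not pass, with a median of 3.67 ± 0.13. ASF1B, an H3-H4 chaperone, had an MRL of 4.74 ± 0.563, ANP32E, which removes H2A.Z, 4.69 ± 0.618, and RBBP7, a histone-binding subunit of several chromatin complexes, 4.50 ± 0.381. The lowest were SPTY2D1, an H3-H4 chaperone, at 2.38 ± 0.828, TONSL, which binds newly made histones at replication forks, at 2.25 ± 0.315, and ZNHIT1, a subunit of the complex that places H2A.Z, at 2.20 ± 0.248.

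The authors' deposited table also sorts genes into strict classes by leading fraction. A lead in every replicate was not its only criterion, since H4C8 and H2BC26, led by monosomes in all 3 gradients, are unassigned or mixed in it. Among the 29 cluster core genes, its strict class was light polysome for 1 (H4C3), monosome for 3 (H2AC25, H2BC11 and H4C14) and unassigned or mixed for 25. Among the linker and variant genes it was heavy polysome for 1 (H1-10), light polysome for 2 (H2AZ1 and H3-3B) and unassigned or mixed for 9.

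Near-identical copies limit what single genes can show. The median cluster core gene had 88.1% of its 75-nt coding windows in no other annotated gene, against 93.4% for the linker and variant genes, and the share was 0% for H2BC12L, H3C14, H3C15, H4C11, H4C12, H4C14, H4C15 and H3-3A. How the authors' counting treated reads that match several genes is not given in the sources used here, so values of these genes are uncertain one by one.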

How the data were processed

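Gene-level values came from 1 table of the vehicle libraries. Per the submitters' processing notes, featureCounts was used and the build was GRCh38. No aligner, counting option, annotation or strand setting is given in the sources used here. The signal the authors deposited is a normalized count, reads divided by 1 size factor per library; dividing by the smallest step recovered whole reads for 100% of values at a tolerance of 0.01 reads. The percent of a gene in each fraction, as the authors deposited it, is the part of its normalized counts in 1 gradient that falls in that fraction. Mean ribosome load, a score the authors deposited, was recomputed per gradient with weights solved from the table.

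The design had allowed for raw counts; for normalized counts the fractions of the 9 libraries were fitted with limma 3.58.1 (trend, R 4.3.3) on log2(normalized count + 1), which understates changes of low genes. MRL was tested as log2 MRL minus the median gene of its gradient, against 0. Tests were two-sided and adjusted over 12720 genes. edgeR 4.0.16 and DESeq2 1.42.0 on recovered reads, a replicate block, other filters, pseudocounts and scalings, and leaving out each replicate were alternatives. The main fits of the fractions and of MRL were tested on simulated data, and the alternatives were not. The simulated libraries were independent, shared a single dispersion and held changes only in the heavy polysomes of a small set of genes. None was set apart as the light polysome library of replicate 2 is here. The simulation therefore cannot show how sound the calls in these data are, and its outcome is not given. Each biological replicate was divided into the 3 fractions, per the labels, so replicate numbers pair the libraries; correlations of same-numbered deviations from the fraction means ran from -0.54 to 0.39. The labels do not say whether replicates were separate cultures beyond calling them biological, so p-values measure the spread between these samples.

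Full values were given for the 2 highest and 2 lowest members of each class by MRL, and for H1-10, H2AX, H2AZ1, H2AZ2, H2AJ, H3-3A, H3-3B and both macroH2A genes; further members were added where a result turned on them. Of the lists of histone mRNA processing factors and of chaperones, the 3 highest and 3 lowest genes by MRL were named. Members and lists were chosen with earlier results of these data known. Sequences and coding lengths came from GENCODE release 29, which held 40 of the 41 members. A further gene of the naming rule is not reported here.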

Additional observations from a re-analysis of the deposited data

How the results depend on the processing

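Counts of members kept that were called higher or lower depended on the filter, the scaling and, for the light fraction, the replicates. With a replicate block the heavy over monosome counts were 3 higher and 19 lower, as without it, the calls of the 28 members given in full were the same, and the counts in the other contrasts of fractions were also the same. For heavy polysome over monosome, 7 members were lower among the 16 with at least 50 mean reads, and scaling by total reads gave 7 higher and 6 lower; leaving out 1 replicate gave 2 to 3 higher and 13 to 19 lower. For light polysome over monosome, against 4 higher and 1 lower, DESeq2 called 3 lower, the filter of 50 reads left 0 lower (0 of 16 members tested by limma), total-read scaling gave 12 higher, and leaving out 1 replicate gave 0 to 9 higher and 0 to 3 lower. DESeq2 and edgeR also called H3-5 higher, and with no filter the call of H2AZ1 was lost. For heavy over light polysome, against 2 higher and 14 lower, 1 was higher with edgeR, DESeq2, no filter, a pseudocount of 0.5 or total-read scaling, 9 were lower with at least 50 reads, and leaving out 1 replicate gave 0 to 3 higher and 0 to 24 lower. DESeq2 added lower calls for H2BC4 (adjusted p = 0.0158), H2BC5 (0.0086), H2BC17 (0.0393), H3C6 (0.0428), H4C11 (0.038) and H4C12 (0.0372). edgeR added H2BC4 (0.0359), H2BC5 (0.0313), H2BC17 (0.0189) and H4C12 (0.0497). With no filter the call of H3-3A was lost. For MRL, against 3 higher and 20 lower, 7 were lower with at least 50 reads and 2 when the combined light and heavy share replaced MRL. The class difference of -0.91 was -0.71 with total-read scaling, -1.09 with at least 50 reads, -1.12 with H1-2 and H1-4 counted among the cluster genes and -0.63 without H1-10 and the macroH2A genes, and ran from -1.002 to -0.83 without 1 replicate. The filter of 50 reads tests fewer genes and leaving out a replicate uses fewer samples. The cause of the other changes was not tested. The shares of all genes called with the filter of 50 reads, total-read scaling, edgeR or DESeq2 are not given beside these member counts.

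Total-read scaling moved the median gene by 1.39 for heavy over monosome, 1.22 for light over monosome and 0.13 for heavy over light polysome. Under it the heavy over monosome log2 fold change reversed for H4C12 (0.0086), H2BC18 (0.0064), H2AC6 (0.29), H2AC11 (0.30), H3C15 (0.45), H3C14 (0.56), H2AC20 (0.67), H3-3A (0.30) and H2AZ1 (1.02), none past the threshold. Leaving out 1 replicate, that of H2AC20 ran from -1.93 to 0.76 and that of H2AJ from -0.42 to 0.51. The log2 MRL difference of H2AC20 then ran from -0.61, which passed without replicate 3 (adjusted p = 0.00817), to 0.048, that of H2AJ from -0.13 to 0.060 and that of H3-5 from -0.053 to 0.095. The MRL difference also reversed for H2AZ1 (0.21) and H3-3B (0.31) with the combined light and heavy share, for H2AJ with that share (0.019) and centred on the mean gene (0.042), and for H3-5 with at least 50 reads (-0.010) and total-read scaling (-0.058). Neither H2AJ nor H3-5 passed in MRL under any of these alternatives.

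Cluster core genes kept had a median of 23.8 mean reads against 429.3 for all genes kept, and intervals or floors from such counts would cover counting error only.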

Other observations

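The 6 members with a mean below 10 reads enter no test. H2AC13 had 5, 5 and 1 reads in heavy polysomes, 5, 4 and 11 in light polysomes and 2, 2 and 6 in monosomes. H3C12 had 0, 2 and 1 reads in heavy polysomes, 12, 2 and 12 in light polysomes and 11, 4 and 23 in monosomes, an MRL of 1.45 ± 0.10. Heavy polysome reads of H3C12 were thus at or under 3 in each library, as those of H4C8 and H2BC17 were. H2BC6, H2BC9, H2BC12L and H3C2 had mean reads of 6.44, 5.67, 6.67 and 9.33 and MRLs of 1.78 ± 0.44, 1.94 ± 0.43, 2.50 ± 1.07 and 2.15 ± 0.55. Their spread over 3 gradients was large, with H2BC12L at 3.71 in replicate 2 against 1.67 and 2.12 in the others.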
